A study of Mus musculus with 8 samples.

Results

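Sirtuins are deacylases that consume NAD+ to remove acetyl and other acyl groups from lysines, and so tie the modification of histones and metabolic enzymes to the NAD+ supply of the cell. Sirt1, Sirt6 and Sirt7 act mainly in the nucleus, Sirt2 mainly in the cytosol, and Sirt3, Sirt4 and Sirt5 mainly in mitochondria, where fatty acid oxidation, ketogenesis and the urea cycle of the liver take place. The mouse family has 7 genes, Sirt1 to Sirt7. All members were taken by symbol, whatever their values, but the family was chosen with earlier results of these data known. All 7 were among the 17810 genes listed and passed the expression filter that left 12395 genes.

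The livers came from male WT mice and HKO littermates, 4 of each, all 5 months old at collection. The diet, CD-HFD, lacked choline and was rich in fat, and it was given for 3 months, starting at 8 weeks. HKO mice carried floxed miR-33 alleles that Cre recombinase, driven by the albumin promoter, removes in hepatocytes. Whether other liver cells keep miR-33 was not tested. The RNA was from whole liver, and the labels do not say whether WT mice carried the floxed alleles. In whole-liver RNA, fewer cells of a type and less RNA per cell cannot be told apart.

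Total counts per liver ranged from 12174339 to 18319736 in WT mice and from 12509201 to 18735785 in HKO mice, so that 3 counts corresponded to 0.149 to 0.255 CPM (the unit of level used here, counts scaled by TMM to the same depth), a floor that covers counting error only. The column names ended in a number, from 55 to 58 for HKO and from 59 to 62 for WT. This numbering and genotype cannot be told apart, and the labels do not say what the numbers stand for. HKO replicate 3 stood apart from the other HKO livers, with a chi-square per degree of freedom of 113 to 128 against each of them, where the other pairs of the same genotype gave 19.4 to 44.8. Without it, the log2 fold change was -0.59 for Sirt5 (edgeR adjusted p = 0.0640), 0.29 for Sirt7 (0.226), 0.19 for Sirt1 (0.460), 0.03 for Sirt2 (0.893), -0.03 for Sirt3 (0.937), -0.18 for Sirt4 (0.769) and -0.49 for Sirt6 (0.602). The summed CPM of the hepatocyte, Kupffer cell, stellate cell, endothelial, cholangiocyte, lymphocyte and red blood cell markers overlapped between the genotypes. The hepatocyte sum lay between 76012 and 109262 CPM for WT and between 65536 and 118098 CPM for HKO, the Kupffer cell sum was 54.8 to 142 and 41.9 to 134 CPM, the stellate cell sum was 313 to 407 and 270 to 394 CPM, and the endothelial sum was 49.7 to 166 and 86.4 to 188 CPM. The cholangiocyte sum lay between 6.16 and 8.93 CPM for WT and between 6.74 and 44.6 CPM for HKO, the lymphocyte sum was 0.330 to 2.98 and 1.01 to 2.89 CPM, and the red blood cell sum was 61.9 to 263 and 65.9 to 105 CPM. Of the 5 lymphocyte markers 0 passed the expression filter, and of the 4 cholangiocyte markers 2 did. Of the 27 marker genes tested, Hnf4a and Serpina1c passed the test (edgeR adjusted p under 0.05), beside 5.03% of all genes tested. Both are of hepatocytes and were higher in HKO livers, by 0.36 and 0.90 on the log2 scale. The part of these differences in the sirtuin values was not tested.

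The miRNA removed in HKO hepatocytes recognizes its targets mainly through bases 2 to 8, the seed, and Sirt6 has been described as a target of miR-33 in earlier work. The mature strands (RefSeq, GRCm38.p6, chromosome 15, plus strand, from 82198127 to 82198147 for miR-33-5p and from 82198167 to 82198188 for miR-33-3p) are shown with the seed in capitals, followed by the one match to the miR-33-5p seed in a sirtuin 3'UTR, with the match in capitals, shown because no other sirtuin transcript held this match in a 3'UTR.
miR-33-5p: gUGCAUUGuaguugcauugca
miR-33-3p: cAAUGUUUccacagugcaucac
Sirt6 3'UTR: agaagctccCAATGCAAtaaatacaa

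For every gene, matches were sought in the longest 3'UTR among its protein-coding transcripts in GENCODE M21, as CAATGCA or AATGCAA on the sense strand, which overlap in the 8-base match CAATGCAA, and as AAACATT or AACATTA for miR-33-3p. Of the 7 sirtuins, Sirt6 held 1 match to miR-33-5p, at position 591 of the 626 bases of its 3'UTR, and the letters shown lie at chr10:81621806-81621831 on the minus strand. The match shares 2 letters with an AATAAA hexamer at position 597, which ends 24 bases before the annotated end of the transcript. Among 1344 tested genes with a 3'UTR of like length, 6.99% held a match to miR-33-5p, and 16.2% did among all 11536 tested genes with a 3'UTR. In protein-coding transcripts, the longest 3'UTRs of Sirt1 (1631 bases), Sirt2 (589), Sirt3 (393), Sirt4 (391), Sirt5 (2018) and Sirt7 (630) held no match to either strand. A Sirt1 transcript annotated as subject to nonsense-mediated decay, which was not part of this search, has a longer 3'UTR (3035 bases) with the miR-33-3p match AACATTA at position 936, and the same bases are coding in another Sirt1 transcript. For Sirt1 and Sirt5, genes with 3'UTRs of like length held a miR-33-5p match in 16.8% and 20.1% of cases. A match describes the sequence only, and a missing match says only that these letters are not in this window.

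Sirt5 was the sirtuin that passed the test between genotypes, and it was lower in HKO livers. Sirt7 was higher in each HKO liver than in any WT liver in TMM-scaled CPM, but not by total counts, and did not pass the adjusted threshold. Sirt1 was higher in a part of the HKO livers, and Sirt2, Sirt3, Sirt4 and Sirt6 overlapped between genotypes. At an adjusted p under 0.05 (edgeR's quasi-likelihood test, Benjamini-Hochberg adjustment over 12395 genes), 1 of 7 sirtuins was called, beside 5.03% of all genes tested (624 genes, of which 206 were higher and 418 lower). The 1 sirtuin called was lower, as were 3.37% of all genes tested. DESeq2 also called 1 of 7 sirtuins, beside 8.18% of all genes, and limma-voom 1 of 7, beside 4.86%. At an unadjusted p under 0.05, 3 of 7 sirtuins passed, beside 19.8% of all genes. In TMM-scaled CPM, the genotypes did not overlap for 2 of 7 sirtuins, beside 12.6% of all genes. The median log2 fold change was -0.07 over the 7 sirtuins, with 3 positive and 4 negative values, and 0.01 over all genes tested.

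**Figure D1:**
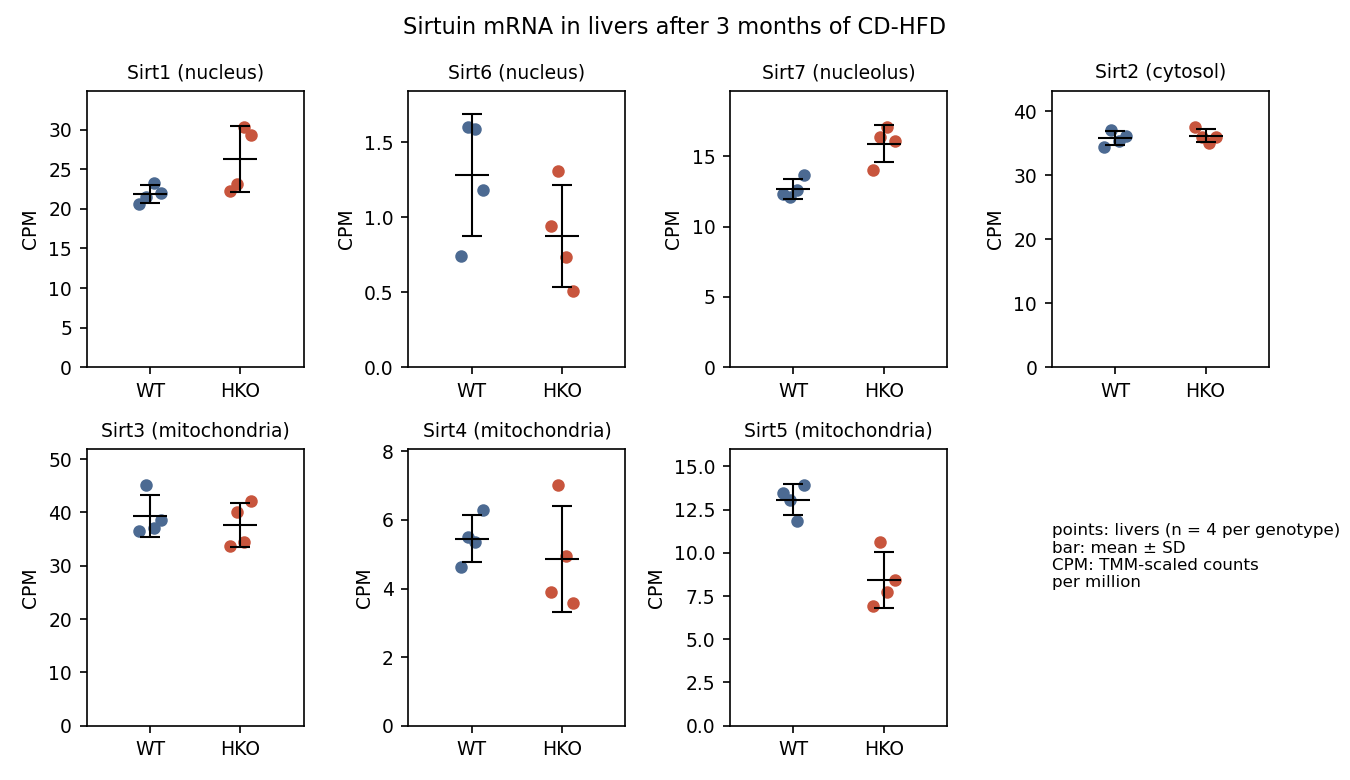
CPM of each sirtuin (y axis, from 0, one panel per gene, with the main compartment of the protein) in 4 WT and 4 HKO livers (x axis); points are livers, and bars give the mean and SD. The HKO points lie below all WT points for Sirt5 and above them for Sirt7, and the genotypes overlap for the other sirtuins.

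Among the mitochondrial members, Sirt5 removes succinyl, malonyl and glutaryl groups from enzymes of the urea cycle, fatty acid oxidation and ketogenesis. It is listed on chromosome 13 from 43370716 to 43395204 on the plus strand. Sirt5 was at 13.5, 13.0, 11.8 and 13.9 CPM in WT replicates 1 to 4 and at 6.94, 10.6, 7.71 and 8.42 CPM in HKO replicates 1 to 4. All HKO livers lay below all WT livers, and HKO replicate 2 was nearest to the WT range. The mean was 13.1 ± 0.90 CPM (SD, n = 4) for WT and 8.43 ± 1.59 CPM (SD, n = 4) for HKO, from 99 to 238 counts per liver. Sirt5 fell by 0.63 on the log2 scale (SE 0.14, 95% interval -0.94 to -0.32, edgeR adjusted p = 0.0264), which is 0.645 of the WT level. The two-sided exact permutation test of its log2 CPM gave p = 0.0286, the smallest that 70 allocations of 8 livers allow. The fold change was negative and called under all 9 other models, scalings and filters (adjusted p = 0.00354 to 0.0489), but the call rested on most of the livers. Leaving out WT replicate 1, 2 or 4 gave an edgeR adjusted p of 0.0777, 0.0840 or 0.0601, and leaving out HKO replicate 1, 3 or 4 gave 0.0573, 0.0640 or 0.0659, with log2 fold changes from -0.63 to -0.55. Without WT replicate 3 or HKO replicate 2 the call was kept, and over all 8 fits the log2 fold change lay between -0.76 and -0.55.

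Sirt3 is the main deacetylase of the mitochondrial matrix. It is listed on chromosome 7 from 140863663 to 140882310 on the minus strand, where its span shares 69 bases with Ric8a on the plus strand. Without strand information, reads in these bases may be those of the neighbour. Sirt3 was at 36.5, 45.1, 37.1 and 38.6 CPM in the WT livers and at 33.6, 40.0, 34.5 and 42.2 CPM in the HKO livers. The values of the genotypes were interleaved. The log2 fold change was -0.07 (SE 0.10, 95% interval -0.29 to 0.16, edgeR adjusted p = 0.788), so that differences beyond 0.818 or 1.12 times the WT level lay outside the interval.

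Sirt4, which acts as an ADP-ribosyltransferase and lipoamidase on matrix enzymes, is listed on chromosome 5 from 115478010 to 115484485 on the minus strand. It was at 4.62, 5.51, 5.37 and 6.30 CPM in the WT livers and at 3.91, 7.02, 4.95 and 3.57 CPM in the HKO livers. The HKO livers held both the highest and the lowest value of Sirt4, with a coefficient of variation of 31.9%, against 12.6% in WT livers and 11.4% from counting alone. Its log2 fold change was -0.17 (SE 0.21, 95% interval -0.64 to 0.30, edgeR adjusted p = 0.736), and it ranged from -0.39 to -0.05 with 1 liver left out. Whether the change of Sirt5 differed from those of Sirt3 and Sirt4 was not tested.

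Among the nuclear members, Sirt7, a deacetylase of the nucleolus linked to rRNA transcription and stress responses, is listed on chromosome 11 from 120618371 to 120625015 on the minus strand. Sirt7 was at 12.3, 12.1, 12.6 and 13.7 CPM in the WT livers and at 14.02, 16.3, 17.1 and 16.1 CPM in the HKO livers. In TMM-scaled CPM, each HKO liver lay above each WT liver, with HKO replicate 1 just above WT replicate 4. WT livers averaged 12.7 ± 0.68 CPM and HKO livers 15.9 ± 1.32 CPM (SD, n = 4 each). The log2 fold change was 0.33 (SE 0.10, 95% interval 0.10 to 0.55), with an edgeR adjusted p of 0.0982, and Sirt7 was not called under any alternative model, scaling or filter (adjusted p = 0.0946 to 0.253). The exact permutation test gave p = 0.0286, and p = 0.0571 when the counts were scaled by their totals alone. With that scaling HKO replicate 1 lay below WT replicate 3, so the genotypes overlapped.

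Sirt1, which deacetylates transcription factors and coactivators such as PGC-1α and FOXO1, is listed on chromosome 10 from 63319005 to 63339036 on the minus strand. Sirt1 was at 20.6, 21.5, 23.3 and 21.995 CPM in the WT livers and at 22.2, 23.1, 30.4 and 29.3 CPM in the HKO livers. HKO replicates 1 and 2 fell within the WT range, and HKO replicates 3 and 4 lay above it. WT livers averaged 21.8 ± 1.11 CPM and HKO livers 26.3 ± 4.18 CPM (SD, n = 4 each). The log2 fold change was 0.27 (SE 0.12, 95% interval 0.02 to 0.52), with an edgeR adjusted p of 0.225, and the exact permutation test gave p = 0.0857.

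Sirt6, a deacetylase of histone H3 that restrains glycolytic and lipogenic genes, is listed on chromosome 10 from 81621787 to 81627567 on the minus strand. It was the family member with the fewest counts, 6 to 32 per liver. Sirt6 was at 0.743, 1.604, 1.590 and 1.18 CPM in the WT livers and at 0.944, 1.31, 0.732 and 0.510 CPM in the HKO livers. The genotypes overlapped, and HKO replicate 4 was the lowest. The gene with the miR-33-5p match had a log2 fold change of -0.57 (SE 0.37, edgeR adjusted p = 0.435). Its 95% interval ran from -1.37 to 0.23, or from 0.387 to 1.17 times the WT level, and counting error alone gave a coefficient of variation of 24.6%. The coefficients of variation between livers were 31.9% in WT and 39.0% in HKO. The value from counting was taken at the mean count of all 8 livers, and the HKO counts were lower. Whether the livers vary beyond counting error was not tested.

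Sirt2, a tubulin deacetylase that also acts on metabolic enzymes of the cytosol, is listed on chromosome 7 from 28766752 to 28788666 on the plus strand. Its span shares 6616 bases with Gm19897 on the minus strand. Without strand information, a part of its reads may be those of this neighbour. Sirt2 was at 34.4, 37.0, 35.4 and 36.2 CPM in the WT livers and at 37.6, 36.0, 35.1 and 36.1 CPM in the HKO livers. Its values were the least variable of the family, with coefficients of variation of 3.08% in WT and 2.86% in HKO livers against 4.32% from counting alone. The log2 fold change was 0.02 (SE 0.07, 95% interval -0.14 to 0.18, edgeR adjusted p = 0.933). Its sign turned with total count scaling, which moved the median over all genes tested from 0.01 to -0.08. The interval lay between 0.907 and 1.13 times the WT level.

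**Figure D2:**
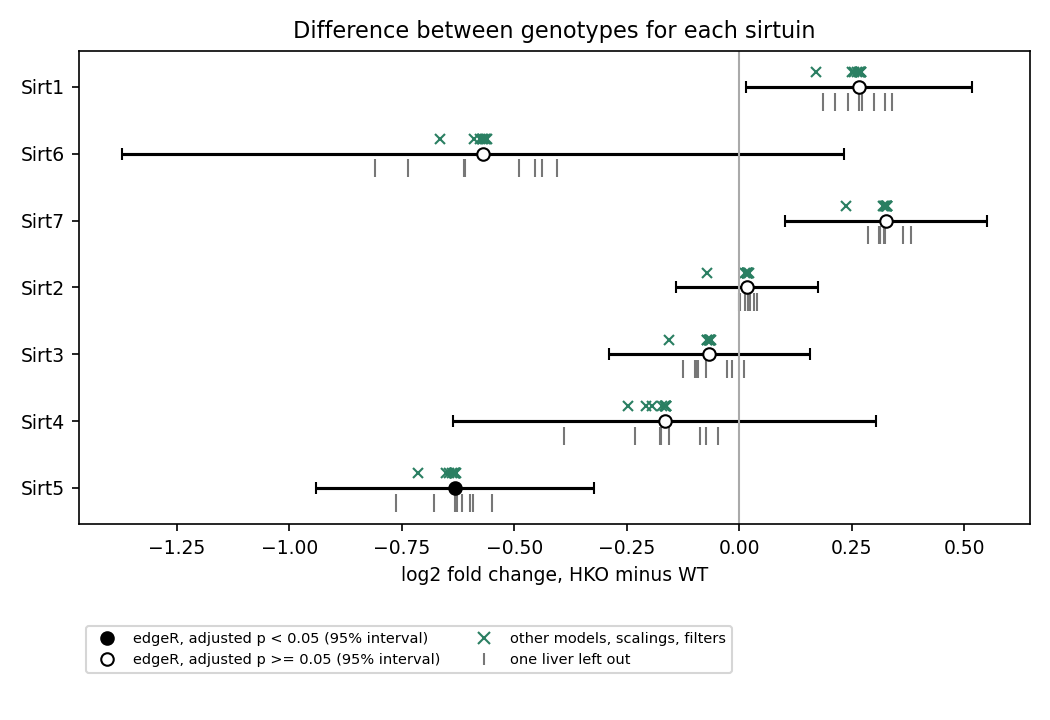
Log2 fold change, HKO minus WT (x axis), for each sirtuin (y axis); circles with bars are edgeR estimates with 95% intervals (filled where the adjusted p was under 0.05), crosses are other models, scalings and filters, and ticks are fits with 1 liver left out. The Sirt5 interval (-0.94 to -0.32) is the one with a filled circle, those of Sirt7 and Sirt1 lie above 0 with open circles, and that of Sirt6 is the widest.

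Levels were compared between members only per kilobase of annotated exons. By the mean over 8 livers, the order was Sirt2 (7.15 ± 0.20 CPM per kilobase, SD), Sirt3 (6.44 ± 0.65), Sirt1 (4.51 ± 0.69), Sirt7 (2.77 ± 0.38), Sirt4 (2.15 ± 0.48), Sirt5 (1.76 ± 0.45) and Sirt6 (0.387 ± 0.147). This order held in 6 of 8 livers. In WT replicate 2 Sirt3 was above Sirt2, and in WT replicate 1 Sirt5 was above Sirt4. The ranges over livers overlapped between the neighbours Sirt2 and Sirt3, Sirt3 and Sirt1, Sirt7 and Sirt4, and Sirt4 and Sirt5, while Sirt1 (3.86 to 5.70 CPM per kilobase) and Sirt7 (2.36 to 3.32) did not overlap, and Sirt6 (0.183 to 0.576) lay below all other members. Of the summed level of the family per kilobase, Sirt5 made up 8.55% in WT and 5.46% in HKO livers, Sirt7 9.81% and 12.2%, and Sirt1 16.3% and 19.5%. The place of Sirt5 depended on the length used. The longest transcript was taken whether coding or not, and those of Sirt3 (3206 bases) and Sirt7 (3274 bases) were noncoding. Per kilobase of its longest transcript (2425 bases, against 6093 bases for all exons), Sirt5 was at 5.39 ± 0.37 in WT and 3.48 ± 0.66 in HKO livers (SD, n = 4 each) and ranked 3 in WT and 5 in HKO livers.

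**Figure D3:**
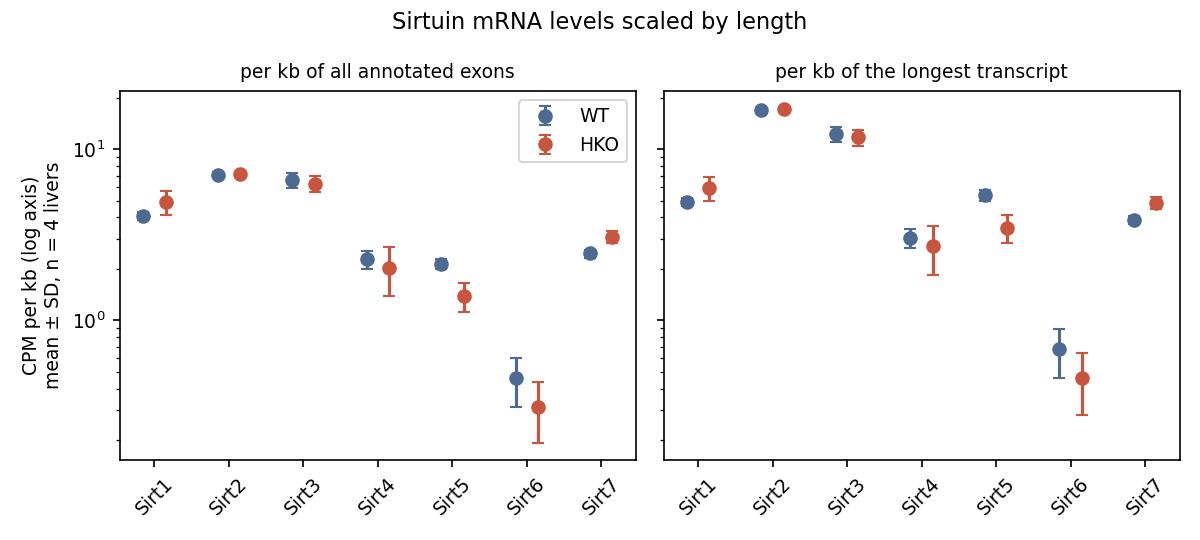
Sirtuin levels in CPM per kilobase (log y axis, mean and SD of 4 WT and 4 HKO livers) by gene (x axis), scaled by the length of all annotated exons on the left and of the longest transcript on the right. Sirt2 and Sirt3 are highest and Sirt6 lowest on both scales, and Sirt5 moves up when the longest transcript is used. The longest transcript was taken whether coding or not.

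The genes whose profile over the 8 livers was most like that of a sirtuin were sought for the 3 members with an unadjusted p under 0.05, among 7270 tested genes with a mean of at least 10 CPM, by the root mean square difference of log2 CPM scaled to mean 0 and SD 1. They were Mipep (0.115), E2f3 (0.168) and Stt3b (0.232) for Sirt5, Ifitm3 (0.176), Larp1 (0.233) and Ang (0.248) for Sirt7, and Dlc1 (0.200), Rcl1 (0.239) and Epb41l4b (0.258) for Sirt1. Mipep encodes a peptidase that matures proteins imported into mitochondria, and its log2 fold change was -0.23 (edgeR adjusted p = 0.141). These profiles share their libraries and genotypes, and the likeness is a description.

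Genes of the pathways around the sirtuins were taken from 7 lists, which were chosen with earlier results of these data known. Of 98 different genes tested, 8 (8.16%) were called, beside 5.03% of all genes tested. The counts of each list that follow are to be read beside the same 5.03%. The lists held NAD+ supply, NAD+ consumers and the clearance of nicotinamide (the product and inhibitor of sirtuins), regulators of sirtuins, nuclear and cytosolic substrates, mitochondrial substrates, the zinc-dependent deacetylases that do not use NAD+, and LKB1 with AMPK, a kinase pathway that acts with Sirt1.

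Of 17 tested genes of NAD+ supply, 2 were higher, 0 were lower and 15 did not pass, with a median log2 fold change of 0.04 (-0.04 with total count scaling). Over all genes tested, the median was 0.01, and -0.08 with total count scaling. Kynu, the kynureninase of the route from tryptophan to NAD+, rose from 230 ± 23.3 to 324 ± 30.0 CPM (SD, n = 4 each), by 0.49 on the log2 scale (edgeR adjusted p = 0.0150). Acmsd, which diverts an intermediate of the same route away from NAD+, rose from 9.80 ± 1.85 to 47.4 ± 18.6 CPM, by 2.27 on the log2 scale (edgeR adjusted p = 0.00723). Kynu acts before the branch point of this route and Acmsd at it. The call of Kynu was lost without WT replicate 1 or 2 (edgeR adjusted p = 0.0550 and 0.0578), and that of Acmsd was kept in all 8 fits. At an unadjusted p under 0.05, 5 genes of this list were higher and 2 were lower, where 19.8% of all genes tested passed in either direction. Outside the naming rule and chosen after its values were seen, Nnt, the mitochondrial transhydrogenase that passes hydride between NADH and NADP+, averaged 118 ± 34.1 CPM for WT and 63.6 ± 9.01 CPM for HKO (SD, n = 4 each). Its log2 fold change was -0.90 with an adjusted p of 0.0526 by edgeR, 0.000312 by DESeq2 and 0.0426 by limma-voom, and the genotypes overlapped (WT from 70.8, HKO up to 77.1 CPM). With 1 liver left out, the edgeR adjusted p of Nnt lay between 0.00142 and 0.142 and passed in 1 of 8 fits, that without WT replicate 4.

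Of 13 tested NAD+ consumers and genes of nicotinamide clearance, 1 was higher, 2 were lower and 10 did not pass, with a median log2 fold change of -0.07. Aox1, an aldehyde oxidase that oxidizes methylated nicotinamide, fell from 117 ± 16.5 to 63.9 ± 12.8 CPM, by 0.87 on the log2 scale (edgeR adjusted p = 0.00999). Nudt12, a hydrolase of NAD(H), fell by 0.33 (edgeR adjusted p = 0.0358), a call kept only without HKO replicate 1 (adjusted p = 0.0550 to 0.123 in the other 7 fits). Pnp, a phosphorylase that cleaves nicotinamide riboside, rose by 0.39 (edgeR adjusted p = 0.0447). The call of Pnp was kept without WT replicate 4 or HKO replicate 1 and lost without each of the other 6 livers (adjusted p = 0.0610 to 0.142), with limma-voom (0.0529) and with total count scaling (0.0958). Nnmt, the methyltransferase that clears nicotinamide, was also chosen after its values were seen. It averaged 57.5 ± 23.4 CPM for WT and 134 ± 18.5 CPM for HKO (SD, n = 4 each), with a log2 fold change of 1.22. Its adjusted p was 0.0747 by edgeR, 3.05e-05 by DESeq2 and 0.0202 by limma-voom, and 0.0918 by edgeR with total count scaling. The genotypes did not overlap (WT up to 83.1, HKO from 117 CPM), as for 12.6% of all genes tested. With 1 liver left out, the edgeR adjusted p of Nnmt lay between 0.0206 and 0.196 and passed in 2 of 8 fits, those without WT replicate 1 (0.0206) or 4 (0.0402).

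The substrates of the mitochondrial sirtuins held 1 higher, 2 lower and 17 genes that did not pass, of 20 tested, with a median log2 fold change of -0.09. Cps1, the first enzyme of the urea cycle and a substrate of Sirt5, rose from 2432 ± 638 to 5814 ± 841 CPM (SD, n = 4 each), by 1.26 on the log2 scale (edgeR adjusted p = 0.00433), while Sirt5 itself fell. Acadm, the medium-chain acyl-CoA dehydrogenase, fell from 596 ± 19.5 to 414 ± 40.7 CPM, by 0.53 (edgeR adjusted p = 0.00734). Hadha, a subunit of the trifunctional protein of fatty acid oxidation, fell by 0.38 (edgeR adjusted p = 0.0250), a call lost without WT replicate 1 or 2 or HKO replicate 2 or 3 (adjusted p = 0.0856, 0.0931, 0.0708 and 0.0628). The calls of Cps1, Acadm and Aox1 were kept in all 8 fits with 1 liver left out.

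In the other 4 lists, with 48 different genes tested, 0 passed the edgeR test, 4 had an unadjusted p under 0.05 (beside 19.8% of all genes tested), and 0 were called by DESeq2 or by limma-voom. Of the 21 nuclear and cytosolic substrates, 19 had a positive log2 fold change, with a median of 0.09, but 10 did with total count scaling, where the median was -0.001. Over all genes tested, the median was 0.01, and -0.08 with total count scaling. The smallest p among these substrates belonged to Foxo1, a transcription factor of gluconeogenesis (0.30, edgeR adjusted p = 0.200), and Crtc2, a coactivator of CREB (0.24, edgeR adjusted p = 0.308). Of the 8 regulators, Usp22, a deubiquitinase that stabilizes Sirt1 protein, was at -0.23 (edgeR adjusted p = 0.316) and E2f1 at -0.50 (0.441). Of the 11 zinc-dependent deacetylases, Hdac6, which shares tubulin as a substrate with Sirt2, was at -0.42 (edgeR adjusted p = 0.121, and 0.0432 to 0.2999 with 1 liver left out, passing in 1 of 8 fits, that without HKO replicate 3) and Hdac3 at -0.20 (0.277). Of the 11 genes of LKB1 and AMPK, the regulatory subunits Prkab1 and Prkab2 were at 0.38 (edgeR adjusted p = 0.0933) and -0.75 (0.156).

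**Figure D4:**
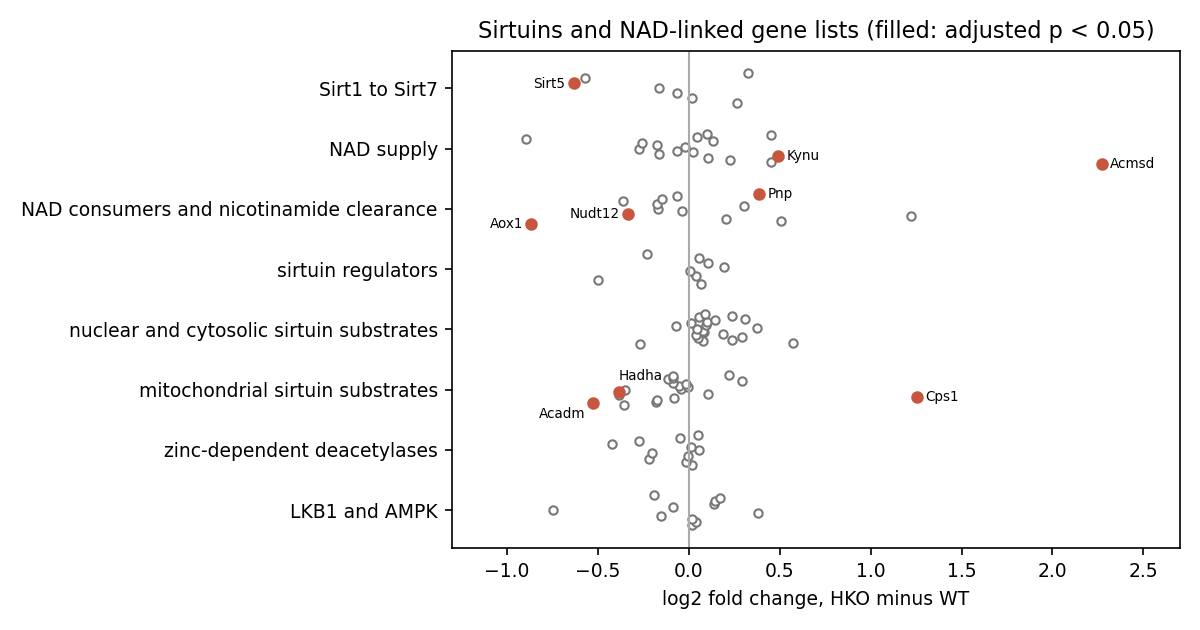
Log2 fold change, HKO minus WT (x axis), of the tested genes of the sirtuin family and of 7 lists around it (y axis), with 1 point per gene; filled and named points had an edgeR adjusted p under 0.05. Sirt5 is the one filled sirtuin, Acmsd (2.27) and Cps1 (1.26) lie farthest to the right, and 4 lists hold open points only.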

How the data were processed

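RNA-Seq of 8 livers (4 WT, 4 HKO) was analysed. The authors deposited estimated counts per gene, made by STAR alignment and expectation-maximization in Partek, without normalization. Of the values 87.7% lie within 0.01 of a whole number. Since a kit for small RNA and removal of rRNA both appear in the labels, the library type is uncertain, and strand setting and annotation were not given in the sources used here. Coordinates match GRCm38, with listed ends 1 past RefSeq for 5 of 7 sirtuins. All columns were mapped from the labels.

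Counts were rounded, filtered (edgeR default, minimum count 10), scaled by TMM and tested with edgeR 4.0.16 (R 4.3.3, robust quasi-likelihood, non-legacy method), with Benjamini-Hochberg adjustment over 12395 genes and a threshold of 0.05. SE was obtained from the log2 fold change and the F of its test (size over the root of F). Log2 CPM added a prior count of 2. Single values were compared with two-sided exact permutation tests over 70 allocations (Python 3.11.15, numpy 2.4.6). Lengths and 3'UTRs came from GENCODE M21. The alternatives tried were limma-voom (limma 3.58.1), DESeq2 1.42.0, other scalings and filters, a replicate block, a fold change above 1.5, each liver left out, transcript length, and, chosen after seeing the data, the legacy quasi-likelihood method. The models were tested on simulated data.

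The members and lists were chosen with earlier results of these data known. Every sirtuin is named with its values. One gene of the list of mitochondrial substrates is not reported here. Of each list, the text names the genes called or, where none was, the 2 with the smallest p at a mean of at least 1 CPM. Whether the 8 libraries stem from separate mice rests on the labels. The titles and the column names give every library its own animal number, whereas the sample descriptions repeat 1 number for all 4 WT libraries, so for WT the p-values may measure technical spread alone. No pair of libraries of the same genotype agreed within sampling noise.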

Additional observations from a re-analysis of the deposited data

How the results depend on the processing

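The number of genes called (624) was 1014 with DESeq2, 367 with a fold change above 1.5 also required, 638 with the legacy quasi-likelihood method and 212 to 597 with 1 liver left out. Total count scaling moved the split from 206 higher and 418 lower to 119 and 625. It moved the median log2 fold change over all genes tested from 0.01 to -0.08. The number of sirtuins called was 0 to 1 with 1 liver left out and 1 otherwise, and that of pathway genes (8) was 3 with the fold change above 1.5 and 4 to 11 with 1 liver left out. Sirt2 turned to -0.0711 with total count scaling (log2 CPM difference -0.0699) and ranged from -0.000921 to 0.0390 with 1 liver left out (log2 CPM difference -0.000984 to 0.0343), with -0.000468 without WT replicate 1. Sirt3 ranged from -0.125 to 0.0111 (log2 CPM difference -0.124 to 0.000705), turning only without WT replicate 2. Leaving out 1 liver gave -0.76 to -0.55 for Sirt5 (log2 CPM difference -0.76 to -0.55) and a log2 CPM difference of 0.28 to 0.38 for Sirt7, which was 0.23 with total count scaling. Per kilobase of the longest transcript, the mean CPM was 5.43 for Sirt1, 17.0 for Sirt2, 11.997 for Sirt3, 2.87 for Sirt4, 4.43 for Sirt5, 0.570 for Sirt6 and 4.36 for Sirt7. With at least 10 counts required in every liver, Sirt6 had no value. The cause of these shifts was not tested, beyond the smaller number of livers. The directions of Sirt1, Sirt4, Sirt5, Sirt6 and Sirt7 were kept under all alternatives that gave a value.

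The deviations from the genotype mean correlated at -0.15 to 0.01 between livers of the same replicate number. With 4 livers a genotype, this cannot tell whether the numbers pair the mice. With a replicate block, 456 genes, 1 sirtuin and 5 pathway genes were called, and the log2 fold change of Sirt5 was -0.64. Among the sirtuins, depth limits Sirt6 most, and 4 livers a genotype limit the exact tests.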
